A study of Mus musculus with 8 samples.

Results

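Open chromatin was described at 6 genes used as further markers of type 1 conventional dendritic cells (cDC1): Plpp1, Gcsam, Ly75, Cd24a, Rab7b and Naaa. The members were every accessible site inside the mm10 span of each gene and in 50 kb on both sides. This gave 113 of the 112443 sites of the series, at 6 of 21887 protein-coding genes. A summit is the position of highest signal in a called peak, and a site is a run of summits of any library with gaps of at most 250 bp. The rule for the sites used positions alone.

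The data are ATAC-seq, in which the Tn5 transposase cuts and tags accessible DNA, from dendritic cells of mouse spleen. Cells were sorted as lineage-negative CD11c+MHCII+CD64-, with cDC1 taken as XCR1+CD11b- and type 2 cells (cDC2) as XCR1-CD11b+. The mice were HDAC1 floxed, called WT here, or HDAC1 Mx1-Cre, called KO here, so that the WT animals also carried the floxed allele. All of them received PolyI/C, the inducer of the Mx1 promoter, and cells were sorted 2 weeks later. Mx1-Cre responds to interferon in many cell types and is not limited to dendritic cells. Each combination of subset and genotype had 2 libraries, which made 4 groups. Nothing in the labels says that both libraries of a group came from separate mice. The p-values therefore measure only the spread between libraries, which may be technical. Values of 4 libraries of a subset are given in the order WT 1, WT 2, KO 1 and KO 2, with the numbers of the sample titles.

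The deposited lists held 61737 to 96031 summits, the longest being library 2 of KO cDC1. They carry no read counts, so the depth of the libraries is unknown and no counting interval can be given. Unless stated otherwise, each list was limited to its 61737 summits of highest score, the length of the shortest. In the full deposited lists, any pair of libraries shared 1.64% to 2.30% of exact summit positions, as a share of the shorter list. Hdac1, the gene deleted in KO, had 11, 13, 10 and 9 summits in its window in cDC1 and 10, 10, 8 and 11 in cDC2. Summit lists measure neither its transcript nor its protein, so the deletion was not checked here. The 9 markers of cDC1 had 128 to 133 summits together in cDC1 libraries and 97 to 104 in cDC2 libraries. Not every marker followed this sum. Clec9a had 9, 8, 9 and 11 in cDC1 and 13, 11, 14 and 14 in cDC2, and Xcr1, Batf3, Itgae and Wdfy4 did not separate the subsets. The 14 markers of cDC2 had 132 to 153 in cDC1 and 149 to 170 in cDC2, ranges that overlapped. Tests of single markers are given below.

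The 6 genes encode proteins of unrelated kinds that have been used to mark cDC1. Ly75 encodes DEC-205, an endocytic receptor that delivers antigen to late endosomes, and Cd24a encodes a small glycosylphosphatidylinositol-anchored surface protein carried by splenic cDC1. Plpp1 encodes a phosphatase that removes phosphate from lipids such as lysophosphatidic acid, and Naaa a lysosomal amidase that hydrolyses N-acylethanolamines. Rab7b is a small GTPase of late endosome and Golgi traffic, and Gcsam a signalling adaptor first described in germinal centre B cells. Accessible sites at and around a gene often mark its promoter and enhancers, though a site can serve another gene nearby.

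RefSeq promoters of build GRCm38.p6 were matched for Gcsam, Ly75 and Naaa. The 250 bases before each gene start are shown 5′ to 3′ on the strand of the gene, because summits lay at or near them. Capitals mark, in Gcsam (chr16:45610190-45610439, plus strand), TTCCTC, the reverse complement of the PU.1 core GAGGAA. In Ly75 (chr2:60383274-60383523, minus strand) they mark ATTGG, the reverse complement of the CCAAT box, and in Naaa (chr5:92278182-92278431, minus strand) CCGCCC, the reverse complement of the GC box GGGCGG.
Gcsam: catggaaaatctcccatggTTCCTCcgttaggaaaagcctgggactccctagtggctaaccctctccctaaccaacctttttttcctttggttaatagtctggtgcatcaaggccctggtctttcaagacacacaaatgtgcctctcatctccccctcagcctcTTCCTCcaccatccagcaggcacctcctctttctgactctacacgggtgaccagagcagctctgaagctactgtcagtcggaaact
Ly75: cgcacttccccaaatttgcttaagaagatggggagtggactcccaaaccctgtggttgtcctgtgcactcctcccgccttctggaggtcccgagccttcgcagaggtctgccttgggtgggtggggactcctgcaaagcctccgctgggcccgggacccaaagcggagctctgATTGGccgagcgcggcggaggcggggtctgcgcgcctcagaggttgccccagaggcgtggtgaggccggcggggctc
Naaa: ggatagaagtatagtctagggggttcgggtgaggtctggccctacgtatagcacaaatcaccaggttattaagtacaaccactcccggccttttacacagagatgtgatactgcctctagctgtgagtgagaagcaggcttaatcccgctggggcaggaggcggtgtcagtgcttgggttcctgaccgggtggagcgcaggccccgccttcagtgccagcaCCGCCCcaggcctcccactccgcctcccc

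Counted in bases from the gene start, the PU.1 core began at -231 and -86 in Gcsam, the CCAAT box at -77 in Ly75 and the GC box at -29 in Naaa. These motifs are common. On either strand GAGGAA was in 23.1% of 27025 promoters of the same length, CCAAT in 34.5% and GGGCGG in 32.9%. The PU.1-IRF composite GGAANNGAA (7.03% of promoters), the interferon response element GAAANNGAA (7.16%), the AP-1 motif TGANTCA (6.87%) and the TATA box TATAAA (13.0%) had no match in the 3 windows. GAGGAA and GGAANNGAA share GGAA, so a PU.1 core can form the start of the composite. A match describes letters only, and a missing match says only that these letters are not in this window.

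At the start of Gcsam, accessibility was found in cDC1 and was mostly below the limit of the lists in cDC2. A summit lay 18 to 73 bases downstream of the start in the 4 cDC1 libraries, with ranks of 14100, 19245, 17197 and 16854. Ranks count from 1, the summit of highest score in a library. In cDC2, only library 2 of KO had a summit there, at rank 34878. The site (chr16:45610458-45610513) had no rank in 3 libraries and could not be tested. A missing summit means that no peak was called among the best 61737, which does not show closed chromatin.

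The start of Ly75 was among the best ranked positions in both subsets. Summits lay at -146 to -78 from the start, counted in bases along the gene, in all 8 libraries, within the sequence shown above and on the upstream side of its CCAAT box. Their ranks were 2206, 1077, 2267 and 1167 in cDC1 and 4334, 6132, 3520 and 1089 in cDC2. The subsets overlapped, since library 2 of KO cDC2 ranked among the cDC1 libraries. Ranks were tested with limma on a normal score, the normal quantile of the rank within the list, in which a higher score is a better rank. The Ly75 start differed by -0.33 between cDC2 and cDC1 (SE 0.166, adjusted p = 0.186) and did not pass.

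The start of Naaa ranked high in both subsets. Its summits lay 80 to 232 bases downstream of the start in all 8 libraries. The ranks were 3379, 3149, 2491 and 2284 in cDC1 and 3612, 4294, 3136 and 2516 in cDC2. These ranges overlapped, and the normal score difference was -0.09 (SE 0.115, limma adjusted p = 0.621).

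Among sites within 1 kb of a gene end that had a rank in all 8 libraries, only sites at Plpp1 and Cd24a passed the test. A Naaa site 882 bp past its downstream end was in cDC1 libraries only, had no test and is given below. The files give no strand for Plpp1 or Cd24a, so positions are given from the end of lower coordinate. At Plpp1 a site 21 bp below that end (chr13:112800739-112800773) ranked 2628, 3410, 3124 and 1891 in cDC1. In cDC2 it ranked 17355, 20155, 16812 and 16024, so every cDC2 library ranked worse than every cDC1 library. The normal score was lower in cDC2 by 1.14 (difference -1.14, SE 0.124, limma adjusted p = 0.00359). The call held in WT alone (-1.14, adjusted p = 0.0201) and in KO alone (-1.13, adjusted p = 0.0293), and over both genotypes in all 14 alternatives tried. Within WT it was lost without any 1 of the 4 WT libraries (adjusted p = 0.0554 to 0.0826), and within KO without any 1 of the 4 KO libraries (0.0558 to 0.0910) or of the 2 WT cDC1 libraries (0.0543 for each). A second Plpp1 site 826 bp below the end ranked 17215 to 26097 in cDC1 and 20663 to 50443 in cDC2, and did not pass (-0.39, SE 0.223, adjusted p = 0.244).

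At Cd24a a site 279 bp below the end of lower coordinate (chr10:43578639-43579142) ranked 6416, 5814, 8248 and 8490 in cDC1. It ranked 29531, 40722, 25576 and 18660 in cDC2, again without overlap. The difference was -1.10 (SE 0.149, limma adjusted p = 0.00524) and held in the 12 alternatives that gave a value. In WT it was -1.47 (adjusted p = 0.0182), a call lost without library 1 or 2 of WT cDC1 (0.0643 and 0.0624) or library 2 of WT cDC2 (0.0690). In KO it was -0.73, which did not pass (adjusted p = 0.105). The test of the difference between these did not pass either (0.73, SE 0.298, adjusted p = 0.998). The best ranked summits of the Cd24a window, at ranks 386 to 1231 in all 8 libraries, belonged to another site 38.2 kb below the gene, at the end of the neighbouring gene Mtres1.

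Rab7b had the same contrast at its end of lower coordinate, on weaker summits. That site (chr1:131688675-131688748, 30 bp inside) ranked 11840, 13352, 13667 and 17134 in cDC1. In cDC2 it was missing from library 1 of WT and ranked 48775, 39496 and 46535 in the other libraries. Every cDC1 rank was better than every cDC2 rank, and without a rank in all libraries the site had no test. The Gcsam end of higher coordinate showed a similar order, with ranks of 23921, 15982, 29991 and 20688 in cDC1 and 54467, none, 53646 and 39645 in cDC2.

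**Figure D1:**
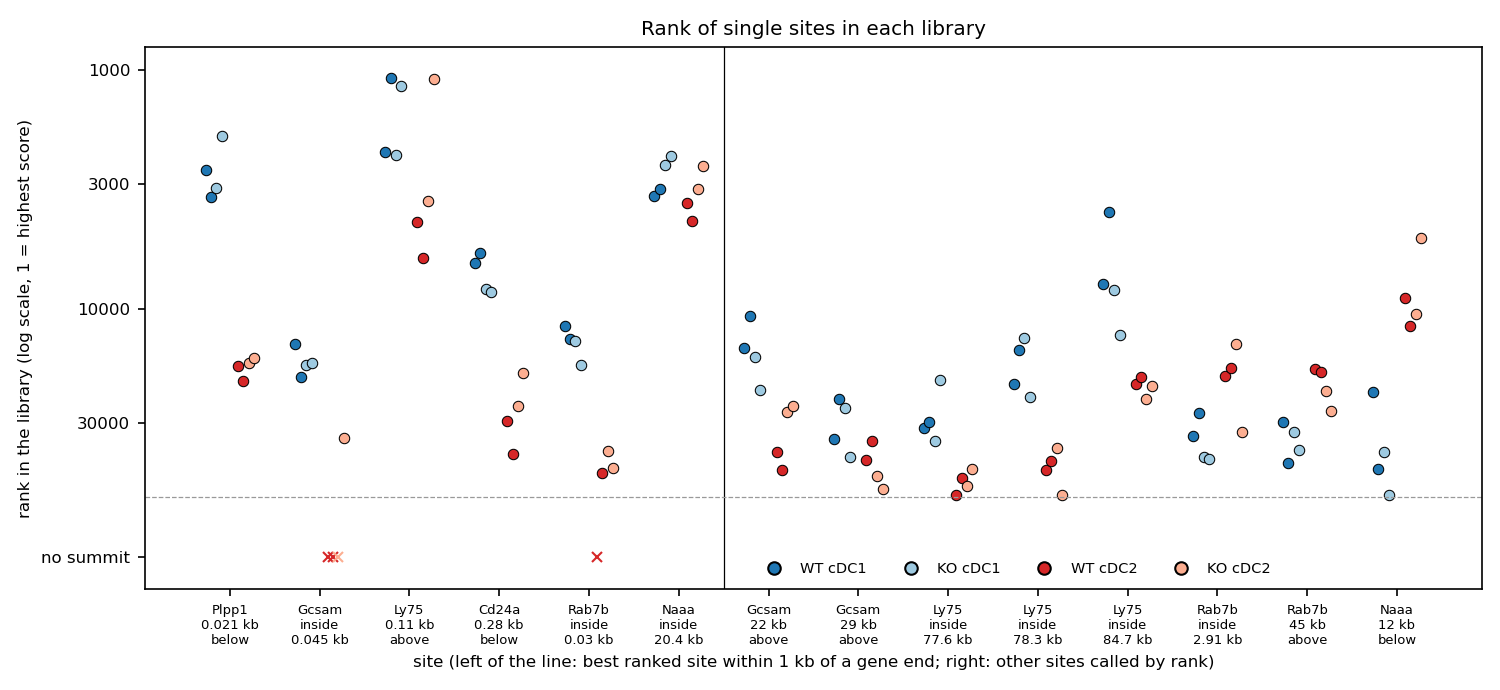
Rank of single sites in each library on a log axis with rank 1 upward, as points coloured by group; crosses at the bottom mark libraries without a summit and the dashed line is rank 61737. Left of the vertical line is the best ranked site within 1 kb of an end of each gene. Right of it are the other sites that passed the limma test. Plpp1 and Cd24a separate cleanly, while the Naaa start does not. The Naaa site found in cDC1 libraries only is not drawn.

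Counts of summits over the whole windows asked whether the subsets differ in the number of accessible places around each gene. Plpp1 and Naaa had fewer summits in cDC2 and passed the test, and Gcsam had fewer without passing. Ly75, Cd24a and Rab7b had numbers that overlapped between the subsets. Because these are bulk libraries, fewer accessible cells and less signal per cell cannot be told apart.

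Around Plpp1 there were 14, 14, 14 and 13 summits in cDC1 libraries and 8, 5, 5 and 7 in cDC2 libraries. Means were 13.8 ± 0.5 and 6.25 ± 1.5 (SD, n = 4), or 8.23 and 3.74 per 100 kb of window, with no overlap. The log2 difference of summits plus 1 was -1.05 (SE 0.160, limma adjusted p = 0.00333) and passed in all 18 alternatives that do not pair libraries by number (-1.19 to -0.58). In WT it was -1.03 (SE 0.226, adjusted p = 0.0366) and in KO -1.06 (adjusted p = 0.0435). The WT call was lost without library 1 or 2 of WT cDC1 (adjusted p = 0.102 and 0.0955) or library 2 of WT cDC2 (0.153). The KO call was lost without library 1 or 2 of KO cDC1 (0.147 and 0.0966) or of KO cDC2 (0.187 and 0.0577). Each of these calls within a genotype was lost in 9 of these 18 alternatives.

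The Plpp1 difference lay mostly below the end of lower coordinate. That flank had 8, 9, 8 and 8 summits in cDC1 and 4, 1, 1 and 3 in cDC2. Inside the gene, away from its ends, there were 2, 1, 2 and 1 summits in cDC1 and 0 in every cDC2 library. The flank above held 2 summits in all libraries but library 2 of WT cDC2, which had 1. In cDC2 the best ranked summits of the window were at a site 3.85 kb above the gene, inside the neighbour Mtrex, with ranks of 4550, 5486, 9023 and 6355. That site ranked 12173, 11437, 8557 and 12854 in cDC1, and its difference of 0.37 did not pass (SE 0.129, adjusted p = 0.0806).

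Naaa had 10, 9, 12 and 10 summits in cDC1 and 7, 6, 6 and 8 in cDC2. Means were 10.2 ± 1.26 and 6.75 ± 0.957 (SD, n = 4), or 8.50 and 5.60 per 100 kb, with no overlap. The difference was -0.54 (SE 0.138, limma adjusted p = 0.0308). The call was lost without library 1 of WT cDC1 (adjusted p = 0.0801), library 1 of KO cDC1 (0.0900), library 2 of WT cDC2 (0.0736) or library 1 of KO cDC2 (0.0991). It was also lost among the best 30868 summits (0.109) and with each summit given to its nearest gene (0.331). By nearest gene Naaa held 2, 3, 3 and 3 summits in cDC1 and 2 in every cDC2 library, so most of the window count lay nearer to Ppef2, Sdad1 and Cxcl9.

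Gcsam had 13, 12, 11 and 13 summits in cDC1 and 9, 5, 10 and 9 in cDC2. Means were 12.2 ± 0.957 and 8.25 ± 2.22 (SD, n = 4), or 10.9 and 7.34 per 100 kb. The subsets did not overlap, yet the difference of -0.55 missed the threshold (SE 0.167, limma adjusted p = 0.0564). It passed in 8 of the 18 alternatives without pairing, among them the best 30868 summits (-1.91, adjusted p = 1.09e-05) and the gene with 10 kb on both sides (-1.06, adjusted p = 0.00381). Leaving out library 1 of WT cDC2 widened the difference to -0.74, with WT cDC2 then resting on its library of 5 summits. Without library 2 of WT cDC2, the one with 5 summits, it was -0.37, the smallest of the 18. Summits strictly inside the gene numbered 2, 3, 1 and 1 in cDC1 and 0 in all cDC2 libraries.

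The remaining genes showed no difference in number beyond the libraries' spread. Ly75 had 18, 14, 16 and 12 summits in cDC1 and 14, 15, 17 and 14 in cDC2 (0.01, SE 0.145, adjusted p = 0.998). Cd24a had 9, 6, 6 and 6 against 8, 5, 4 and 5 (-0.27, SE 0.172, adjusted p = 0.338). Rab7b had 20, 17, 18 and 18 against 19, 15, 19 and 16 (-0.08, SE 0.133, adjusted p = 0.738). Directions were not fixed for these 3 genes. Ly75 turned to -0.08 with all deposited summits and to -0.30 among the best 30868, Cd24a to 0.14 with 10 kb on both sides, and Rab7b to 0.10 by nearest gene. Per 100 kb, Rab7b had the densest window in both subsets (14.4 in cDC1 and 13.6 in cDC2), followed in cDC1 by Gcsam (10.9), Naaa (8.50), Plpp1 (8.23), Ly75 (7.85) and Cd24a (6.42). In cDC2 the order was Ly75 (7.85), Gcsam (7.34), Naaa (5.60), Cd24a (5.23) and Plpp1 (3.74). Naaa, Plpp1 and Ly75 in cDC1 differed by less than the spread of their libraries.

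**Figure D2:**
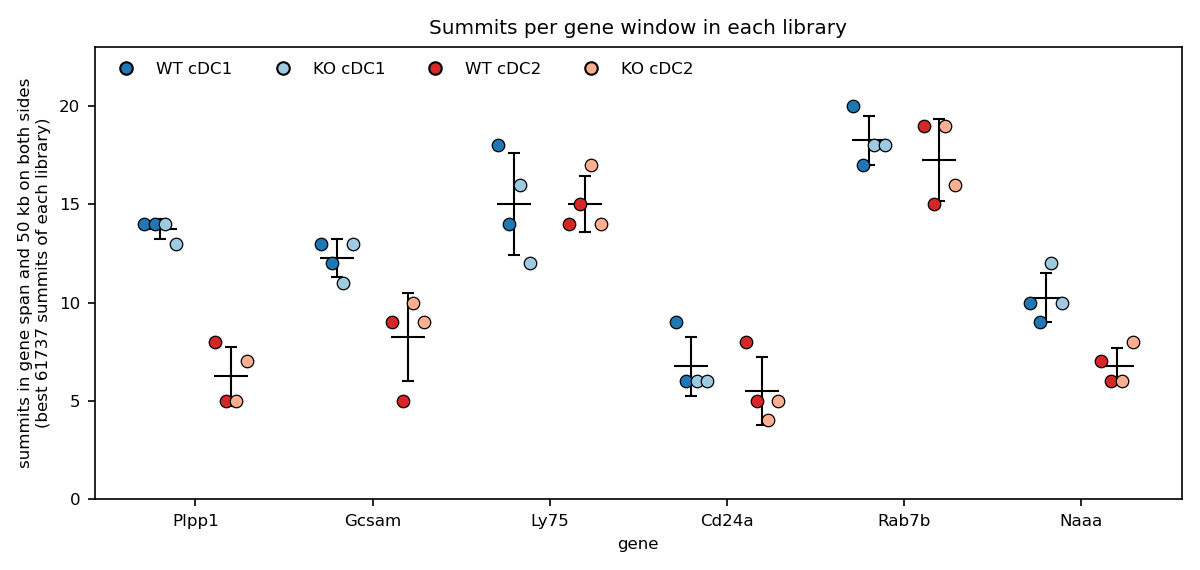
Number of summits in each gene span with 50 kb on both sides, one point for each library coloured by group, with bars for the mean and SD of the 4 libraries of a subset (n = 4). The points of cDC1 lie above all points of cDC2 at Plpp1, Gcsam and Naaa, and overlap at Ly75, Cd24a and Rab7b.

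All 6 genes passed the filter on low values, a mean of at least 1 summit. Of them 2 were called lower and 0 higher in cDC2, beside 11.8% of all 17728 gene windows called in either direction and 5.93% called lower. All cDC1 libraries lay above all cDC2 libraries at 3 of the 6, where 7.03% of windows did so. In WT alone 1 gene (Plpp1) was called, with 3.31% of all windows called and 1.64% lower. In KO alone 1 gene, again Plpp1, was called, with 1.96% called and 1.12% lower. The windows hold neighbours whose own windows share the same summits, so neighbouring windows are not independent.

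Sites found in 1 subset only were then listed by presence. A site counted for cDC1 when all 4 cDC1 libraries and no cDC2 library had a summit in it, and the reverse for cDC2. There were 9 cDC1-only sites (7.96% of the 113), where 4.33% of all sites were so. There were 3 cDC2-only sites (2.65%), where 2.42% of all sites were so. Sites in all 8 libraries made up 28.3% of the 113 and 26.4% of all sites, and sites in a single library 17.7% and 24.3%. No test was made of these counts.

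Plpp1 held 4 of the 9. They lay 33.1 kb (chr13:112767603-112767708), 10.5 kb (chr13:112790299-112790326) and 8.62 kb (chr13:112792114-112792192) below the end of lower coordinate, and 9.74 kb inside it (chr13:112810493-112810545). The inside site had ranks of 26412, 18344, 28248 and 25740. The site at 10.5 kb ranked 11886 and 17737 in the WT libraries and 42840 and 41996 in the KO libraries, without overlap. At 33.1 kb the genotypes did not overlap either, in the opposite order, with 45390 and 40616 in WT and 38761 and 34406 in KO. Both Cd24a cDC1-only sites given below also ranked better in KO without overlap. None of these genotype orders was tested. The outermost site lay nearer to Slc38a9 than to Plpp1. The site at 8.62 kb also had a lower ranked summit in 1 cDC2 library once all deposited summits were read.

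Gcsam held 2, both among the better ranked. The site 5.69 kb inside the gene (chr16:45616066-45616196) ranked 13878, 16948, 17741 and 13855 in cDC1. The site 5.74 kb past the end of higher coordinate (chr16:45628552-45628656), within the neighbour BC016579, ranked 12882, 12617, 13546 and 12825. Neither had a cDC2 summit in the full lists, and the nearest cDC2 summits there were 5569 and 1783 bp away.

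Cd24a held 2 cDC1-only sites, 8.93 kb (chr10:43593144-43593240) and 38.4 kb (chr10:43622682-43622723) above the gene. The nearer ranked 20530, 21225, 17773 and 16710 and had lower ranked summits in 2 cDC2 libraries of the full lists. The farther ranked 36021, 45866, 30965 and 26443. Naaa held the last, 882 bp past its downstream end (chr5:92256715-92256842), with ranks of 20221, 16949, 16265 and 17124 with the nearest cDC2 summit 1950 bp away. Its nearest gene was Ppef2.

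The 3 cDC2-only sites were at Ly75, Cd24a and Rab7b, 1 each. In Ly75 such a site lay inside the gene, 31.5 kb from its downstream end (chr2:60323584-60323704), with cDC2 ranks of 49149, 35193, 43014 and 52724. At Cd24a it lay 4003 bp below the gene (chr10:43575142-43575191), with ranks of 40897, 28473, 32895 and 28397. In Rab7b it lay 13966 bp inside (chr1:131702559-131702735) and ranked 27952, 29322, 42210 and 53950. The Rab7b site had lower ranked summits in 2 cDC1 libraries of the full lists. Among the best 30868 summits there were 0 cDC2-only sites, while the cDC1-only sites numbered 9 to 12 over the 12 alternatives. They were not the same sites throughout. The Plpp1 sites 33.1, 10.5 and 8.62 kb below the gene and the Cd24a site 38.4 kb above it had cDC1 ranks worse than 30868. These listed sites therefore cannot be cDC1-only among the best 30868.

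**Figure D3:**
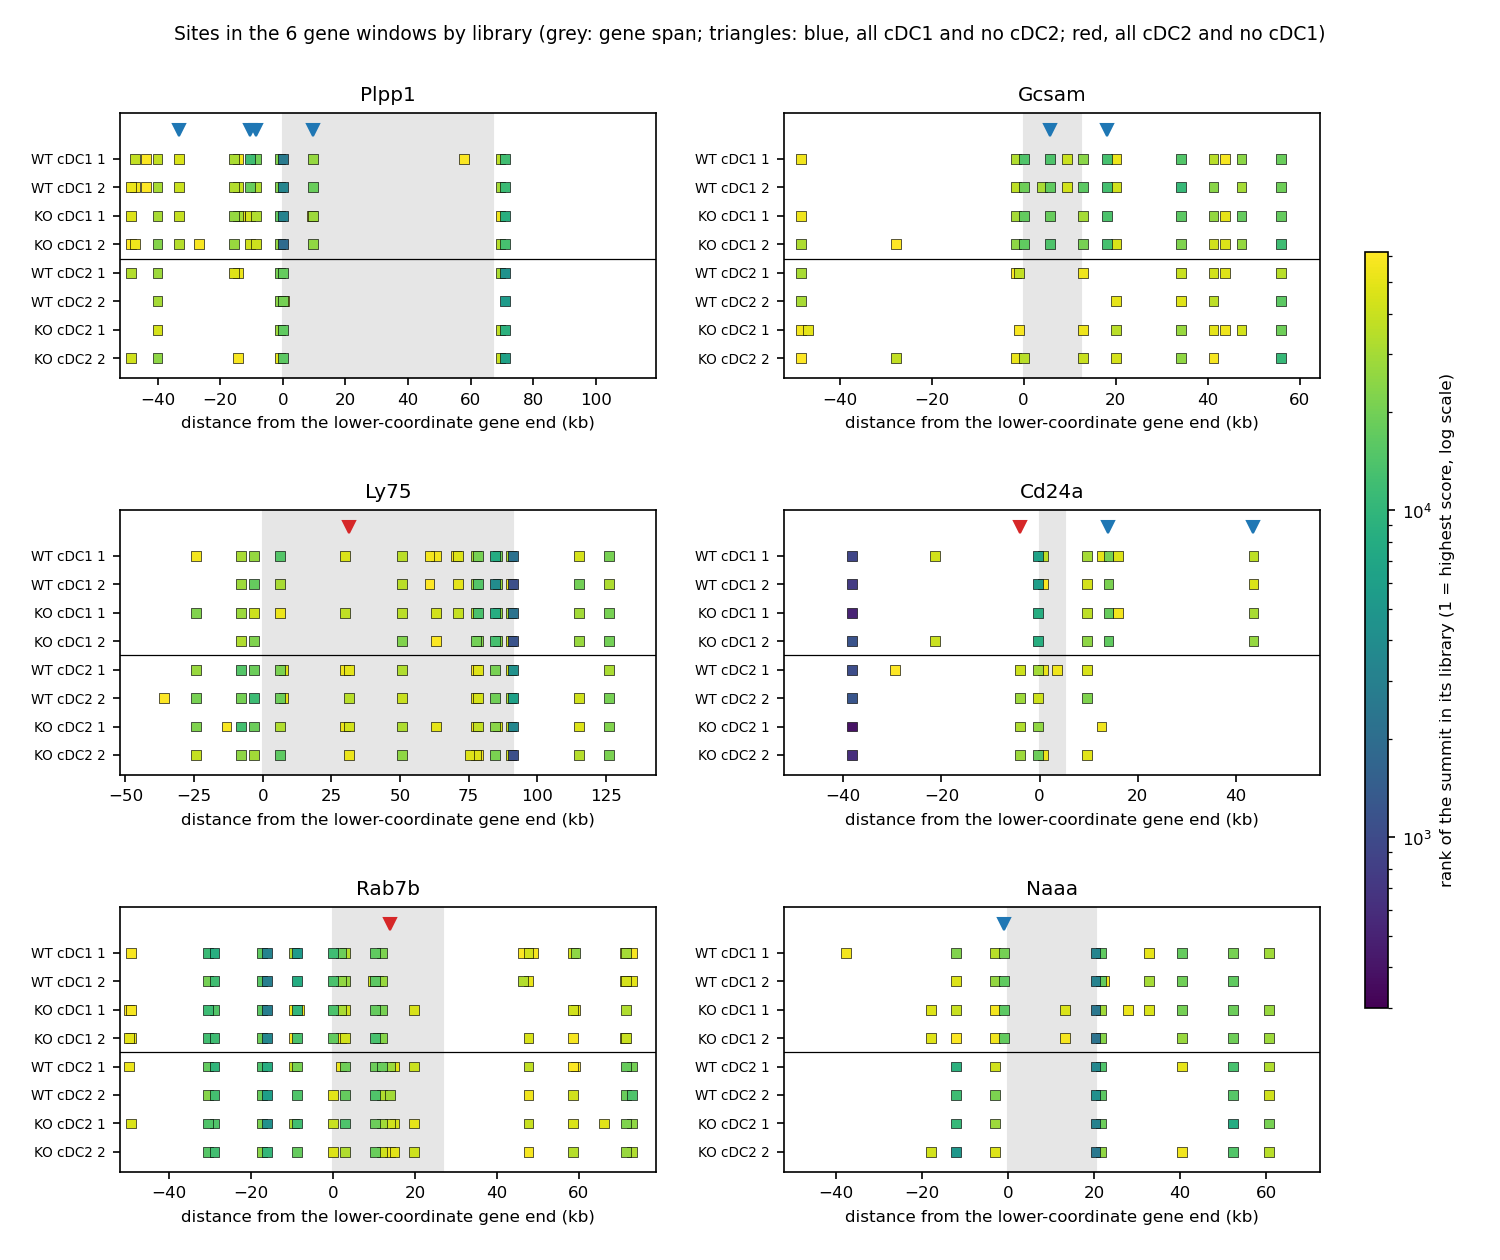
Sites along each gene window by library, as distance in kb from the end of lower coordinate; squares are sites with a summit, coloured by rank on a log scale, the grey band is the gene span, and triangles mark subset-only sites (blue for cDC1, red for cDC2). The 4 blue triangles at Plpp1 lie below or just inside the gene, and the cDC2 rows are sparse there.

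Sites present in all 8 libraries, 32 of the 113, were compared by rank. Between the subsets 10 of the 32 were called with limma, beside 19.2% of the 29645 such sites of the series. Of these 7 ranked worse in cDC2 (8.37% of all sites did) and 3 ranked better (10.8%). Sites that were missing from any library could not enter, so the most subset-restricted places stand outside this test. In WT 4 of the 32 were called (5.01% of all sites), at Plpp1, Cd24a, Gcsam and Ly75. In KO 1 was called (2.2% of all sites), at Plpp1. The WT count fell to 0 without library 1 or 2 of WT cDC1 or library 2 of WT cDC2. The KO count was 0 without library 1 or 2 of WT cDC1, library 2 of KO cDC1 or library 2 of KO cDC2. Without library 1 of KO cDC1 or library 1 of KO cDC2 it was 1, at a site other than that of Plpp1. In these 2 cases the Plpp1 site did not pass (limma adjusted p = 0.0558 and 0.0910). The WT call at Ly75, at the site 6.43 kb from the start (-0.87, limma adjusted p = 0.0493), was lost without any 1 of the 8 libraries (0.0599 to 0.191).

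Inside Ly75, 3 sites in the part of the gene near its start ranked better in cDC1. The site 6.43 kb from the start ranked 7895, 3943, 8348 and 12851 in cDC1 and 20644, 19398, 23794 and 20999 in cDC2, without overlap (-0.74, SE 0.142, limma adjusted p = 0.0138). The site 13.6 kb from the start ranked 31576, 29931, 35923 and 19915 against 60485, 51403, 55228 and 47082 (-1.31, SE 0.268, adjusted p = 0.0164). Over both genotypes these calls held in every alternative that gave a value. The third, 12.9 kb from the start, ranked 13306 to 23442 in cDC1 and 38180 to 60256 in cDC2 (-1.44, SE 0.332, adjusted p = 0.0236). It lost the call without library 1 or 2 of WT cDC1 (adjusted p = 0.0576 and 0.0675), library 1 of KO cDC1 (0.0670), or library 1 or 2 of WT cDC2 (0.0647 and 0.0611). A neighbouring site 5.68 kb from the start ranked 19802 to 27741 in cDC1 and was present in 1 cDC2 library, at 45809. Thus equal numbers of summits around Ly75 went together with different ranks at single places.

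Above Gcsam, a site 21.8 kb past the end of higher coordinate and within BC016579 ranked 14601, 10732, 15982 and 22005 in cDC1. It ranked 39727, 47256, 26967 and 25623 in cDC2, without overlap (-0.85, SE 0.143, limma adjusted p = 0.00963), and the call held in all 13 alternatives with a value. In WT the difference was -1.37 (adjusted p = 0.0188), a call lost without library 1 or 2 of WT cDC1 (0.0554 and 0.0705) or library 2 of WT cDC2 (0.0776). In KO it was -0.32 (adjusted p = 0.397). The test of the difference between these did not pass (1.05, SE 0.286, adjusted p = 0.998). Another site 28.8 kb above ranked 23956 to 41905 in cDC1 and 35992 to 57091 in cDC2, which overlapped (-0.72, SE 0.213, adjusted p = 0.0490). Its call was lost in 8 of 13 alternatives, 7 of them by leaving out any 1 library except library 2 of KO cDC1 (adjusted p = 0.0522 to 0.137).

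The 3 sites that ranked better in cDC2 were at Naaa and Rab7b. The Naaa site, 12023 bp beyond the downstream end of the gene and within Ppef2, ranked 22431, 46872, 39847 and 60231 in cDC1 and 9003, 11834, 10532 and 5036 in cDC2 (1.74, SE 0.365, limma adjusted p = 0.0174). Every cDC2 library was ahead of every cDC1 library. The call was lost without library 2 of WT cDC1 (adjusted p = 0.0508), library 1 or 2 of WT cDC2 (0.0513 and 0.0503) or library 2 of KO cDC2 (0.0538).

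The Rab7b sites lay 2.91 kb inside the gene and 44.8 kb above it, the second within the neighbour Slc26a9. The inside site ranked 34034, 27395, 41722 and 42669 in cDC1 and 19067, 17635, 14025 and 32713 in cDC2, with overlap (0.67, SE 0.190, limma adjusted p = 0.0438). The other ranked 29855, 44208, 32857 and 39230 against 17893, 18365, 22079 and 26869, without overlap (0.64, SE 0.166, adjusted p = 0.0340). Each lost the call in 8 of 13 alternatives. For the inside site these were all deposited summits and any 1 library left out except library 2 of KO cDC2 (adjusted p = 0.0754 to 0.132). For the other they were all deposited summits and any 1 library except library 1 of WT cDC1 (adjusted p = 0.0548 to 0.0983). At 30 bp inside Rab7b the ranks had the opposite order, as given above, at a site that had no test.

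Deletion of Hdac1 was compared within each subset. Of the 6 gene windows 0 were called with limma in cDC1, in cDC2 or for the difference between the subsets, under the reported settings and in all 18 alternatives without pairing. Over all windows 3 were called in cDC1 (0.0169%), 1 in cDC2 (0.00564%) and 0 (0%) for the difference, with 976, 1041 and 738 windows at an unadjusted p under 0.05. None of the 6 genes was at an unadjusted p under 0.05 in any of the 3. Plpp1 differed by -0.05 between KO and WT in cDC1 and by -0.08 in cDC2 (SE 0.226 for each). The widest differences in cDC2 were those of Gcsam (0.44, SE 0.236, adjusted p = 0.931), at 9 and 5 summits in WT and 10 and 9 in KO, and of Cd24a (-0.42, SE 0.243, adjusted p = 0.953). In cDC1 they ran from -0.26 at Cd24a to 0.19 at Naaa. A difference that misses the threshold with 2 libraries a group does not show that the genotypes were alike.

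Ranks gave the same count. Of the 32 member sites 0 were called for genotype in cDC1 (0.00337% of all sites, 1 site), in cDC2 (0% of all) or for the difference between subsets (0% of all). At an unadjusted p under 0.05 there were 1, 4 and 2 member sites, and 2291, 2151 and 1382 over all sites. The smallest of these unadjusted values in cDC2 belonged to the Gcsam site 21.8 kb above the gene, which ranked better in KO by 0.73 (SE 0.202, adjusted p = 0.596). Its 2 WT cDC2 libraries ranked 39727 and 47256 and its 2 KO cDC2 libraries 26967 and 25623. In cDC1 it was the Naaa-window site 2.96 kb beyond the downstream end, ranked 34817 and 26209 in WT and 55915 and 55395 in KO (-1.31, SE 0.341, adjusted p = 0.419).

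By presence, 6 of the 113 sites were in both WT and no KO library of cDC1 (5.31%, beside 2.28% of all sites), and 3 in both KO and no WT library (2.65%, beside 2.17%). The 6 were spread over Plpp1, Gcsam, Ly75, Cd24a and Rab7b (2 sites), and the 3 over Naaa (2 sites) and Rab7b. In cDC2 1 site was in both WT and no KO library (0.885%, beside 1.92%), inside Ly75 at ranks 47374 and 51496, and 0 were in KO alone (0%, beside 2.32%). All of these summits ranked worse than 30868, such as 45220 and 57959 at the KO-only site inside Naaa. Over the 12 alternatives the WT-only sites numbered 1 to 11 in cDC1 and 1 to 7 in cDC2, and the KO-only sites 2 to 10 and 0 to 8. No test was made of these counts.

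**Figure D4:**
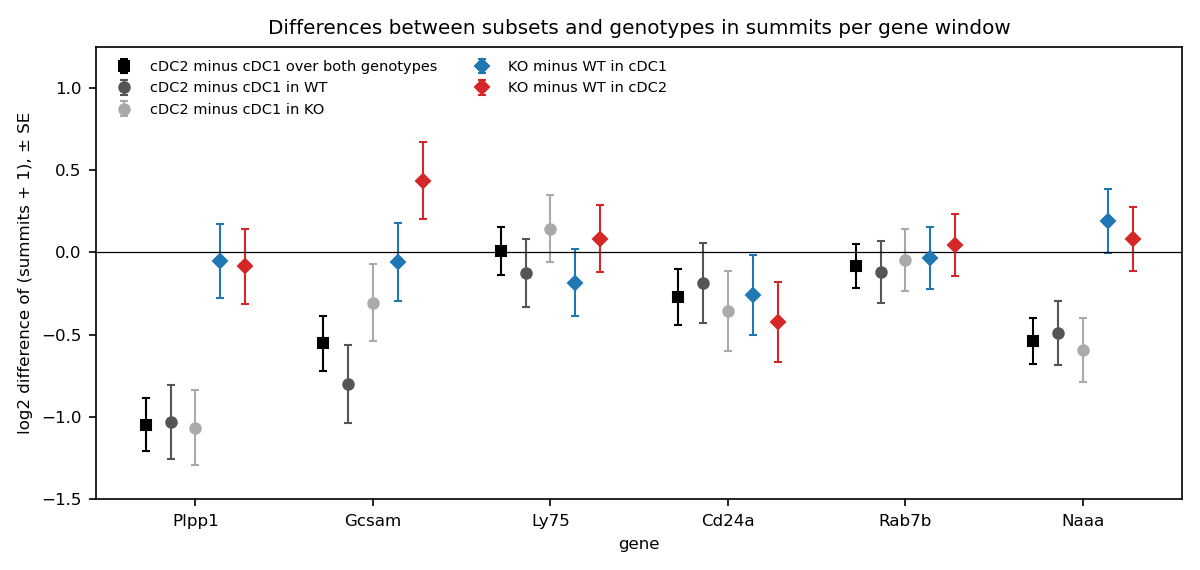
Differences of log2(summits + 1) for each gene window with their limma SE, for cDC2 against cDC1 (all libraries, WT alone, KO alone) and for KO against WT within each subset. Plpp1 stands near -1 in all 3 subset comparisons, and the genotype differences of all 6 genes lie between -0.42 and 0.44.

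Other cDC1 markers were counted the same way for comparison. Of 18 further markers, all tested, 4 were lower in cDC2 and 1 higher, with a median log2 difference of -0.18 beside 0 over all genes. Over all gene windows 5.93% were lower and 11.8% were called in either direction. Cd8a, the CD8 alpha chain, differed by -1.95 (SE 0.227, limma adjusted p = 0.000963) and the adhesion gene Cadm1 by -0.85 (SE 0.125, adjusted p = 0.00297), and both passed in all 18 alternatives without pairing. Irf8, a transcription factor that cDC1 require, differed by -0.64 (SE 0.120, adjusted p = 0.00897), and Tlr3, an endosomal sensor of double-stranded RNA, by -0.53 (SE 0.124, adjusted p = 0.0220). Of those 18, Irf8 missed the threshold only among the best 30868 summits (adjusted p = 0.0648). Tlr3 missed it in 7, among the best 30868 (0.130), with 10 kb on both sides (0.125), by nearest gene (0.0864) and without library 2 of WT cDC1 (0.0710), library 1 of KO cDC1 (0.0711) or library 1 or 2 of KO cDC2 (0.0530 and 0.0532).

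Clec9a, a lectin of cDC1 that binds dead cells, had more summits in its window in cDC2, by 0.45 (SE 0.128, limma adjusted p = 0.0451). The call was lost with any 1 library left out (adjusted p = 0.0511 to 0.143) and with all deposited summits (0.10, adjusted p = 0.747). It was also lost with 10 kb (0.135) or 100 kb (0.0696) on both sides, a pseudocount of 0.5 (0.0557) and no low filter (0.0595). By nearest gene Clec9a had no value. Among the best 30868 summits the direction turned, and limma called Clec9a lower in cDC2 (-0.56, adjusted p = 0.0275). For genotype limma called 0 of the 18 in either subset, with 0 at an unadjusted p under 0.05 in cDC1 and 2 in cDC2. This list was chosen with earlier results of these data known.

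Relatives of the members by family or enzyme function moved in no shared direction. Of 17 such genes 16 were tested, with a median of -0.07. The 2 called higher and 1 called lower stand beside 11.8% of all gene windows called in either direction. Mrc2, a receptor of the mannose receptor family like Ly75, was higher in cDC2 by 0.87 (SE 0.165, limma adjusted p = 0.00929), at 2, 1, 2 and 2 summits in cDC1 and 4, 3, 5 and 4 in cDC2. It missed the threshold with all deposited summits (0.03, adjusted p = 0.965) and among the best 30868 (0.15, adjusted p = 0.725). Faah, another hydrolase of fatty acid amides, was higher by 0.74 (adjusted p = 0.0327), and Asah1, acid ceramidase and a relative of Naaa, lower by 0.61 (difference -0.61, adjusted p = 0.0389). Each of these calls was lost without any 1 of 5 libraries: for Faah libraries 1 and 2 of WT cDC1, and library 1 of KO cDC1, WT cDC2 and KO cDC2 (adjusted p = 0.0523 to 0.0827), and for Asah1 libraries 1 and 2 of WT cDC1, library 2 of KO cDC1, and library 1 of WT cDC2 and KO cDC2 (0.0683 to 0.109). Faah was 0.29 with all deposited summits (adjusted p = 0.390). Asah1 was -0.36 among the best 30868 (0.146) and -0.23 both with 10 kb on both sides (0.571) and by nearest gene (0.597). In all, 9 of 18 alternatives without pairing ended the call of Faah and 12 that of Asah1. For genotype limma called 0 of the 16 in either subset, with 2 at an unadjusted p under 0.05 in each.

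Markers of other cells were counted beside these. The sort was meant to remove lineage-positive cells and, by its CD64- gate, macrophages and monocyte-derived cells. Of the 14 cDC2 markers limma called 4 higher in cDC2 and 0 lower, beside 1035 of all 17728 windows called higher. Their median log2 difference was 0.18, beside 0 over all genes. In WT 2 of them were called higher (3.31% of all windows called in either direction) and in KO 0 (1.96%). Of 7 plasmacytoid dendritic cell genes 2 were lower in cDC2, with 63 to 72 summits together in cDC1 libraries and 63 to 67 in cDC2. Of 9 monocyte and macrophage genes 2 were lower (64 to 71 and 62 to 64), and of 7 B cell genes 1 was lower (45 to 53 and 46 to 50). Of all gene windows 5.93% were lower and 11.8% were called in either direction. By limma 0 passed among 7 T cell genes (52 to 60 and 53 to 66), 5 NK cell genes (42 to 48 and 47 to 49), 6 granulocyte genes (35 to 41 and 38 to 41) or 4 erythroid genes (27 to 35 and 26 to 29), with 1 gene of each list at an unadjusted p under 0.05. No marker was at 0 in all libraries. The part of other cells in the subset differences was not tested.

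Some genes elsewhere followed a member closely over the 8 libraries, by Pearson's r of log2(summits + 1). This is a description over 8 libraries that share their list length and their subset, and genes within 1 Mb of a member were left out. For each member the 2 genes of highest r among the 17728 tested were taken, so high values come with the choice itself. Closest to Plpp1 were Gpr141b (r = 0.999), with 12, 13, 12 and 11 summits in cDC1 and 6, 3, 3 and 5 in cDC2, and Nrde2 (0.988). Gcsam was followed by Mapk14 (0.984) and Sparcl1 (0.983), and Naaa by Depdc5 (0.978) and Map3k15 (0.977). For the genes whose subsets overlapped, the closest were Cdh17 (0.965) and Spi1 (0.952) for Ly75, Adk (0.992) and Stard7 (0.970) for Cd24a, and Rnf34 (0.968) and Proca1 (0.967) for Rab7b.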

How the data were processed

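ATAC-seq libraries of sorted spleen cells were analysed from the deposited summit lists, 1 list per library and 1 summit per peak. Bowtie2, SAMtools, MACS2 and MultiQC were used by the authors with GRCm38 (mm10), per the submitters' processing notes; versions, filters, peak settings and any pooling are not given in the sources used here. Each deposited summit has a score, the −log10 of a p-type value of its peak. It was taken as the q-value of MACS2, because the lowest score lay between 1.30 and 1.36 in every library. Scores rise with depth, so they were read only as ranks within a list.

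Lists were limited to the 61737 best summits. Groups came from the sample titles. Summits were counted in each of 21887 protein-coding gene spans (GRCm38.p6, spans without exons) with 50 kb on both sides. Counts were fitted as log2(summits + 1) with limma 3.58.1 in R 4.3.3, with 1 mean for each of the 4 groups, over the 17728 genes whose mean was 1 summit or more. A variance of 0.0833 squared summits, that of rounding to a whole number, was added for each gene; this treatment was chosen in an earlier analysis of these lists after its results were known. Ranks were fitted as normal scores over the 29645 sites in all 8 libraries. P-values were adjusted by Benjamini-Hochberg over all features, with a threshold of 0.05. Both fits were tested on simulated data.

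The members and all gene lists were chosen with earlier results of these data known. Named were the 6 members, list genes that passed the test, neighbours, the 2 most similar genes of each member, subset-only sites, sites within 1 kb of an end and sites called by rank. The 7 motifs were chosen here, the PU.1 core after the sequences had been seen. Alternatives changed list length, window, assignment, pseudocount, filter, variance, chaining distance, rank scale, block and libraries; the block without the rounding variance was added after seeing the data. Deviations of libraries with the same number correlated at 0.0039 to 0.064 across 17728 genes. This does not show pairing and cannot exclude it, and the reported fits do not pair libraries.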

Additional observations from a re-analysis of the deposited data

Results flagged for a closer look

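In 2 of the 12 groups of 4 libraries compared (the 4 libraries of a subset at each of the 6 genes), 1 library stood apart from the others. The rule is set for continuous values, where chance flags about 1 in 20 groups. That rate does not hold for small whole numbers with ties. Around Plpp1, replicate 2 of KO cDC1 had 13 summits and the other cDC1 libraries 14 each. Around Cd24a, replicate 1 of WT cDC1 had 9 summits and the other cDC1 libraries 6 each. In both cases the 3 other libraries had equal counts, and then any count that differs is flagged, however small its distance.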

How the results depend on the processing

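Of the 6 genes, 2 were called between the subsets and 1 to 3 when a library was left out. In WT 1 was called: 0 with a pseudocount of 0.5, without the low filter or without the rounding variance, 2 with a mean of at least 3 summits or with trend and robust moderation, and 0 to 2 when a library was left out. In KO 1 was called: 0 with all deposited summits, 10 kb on both sides, a pseudocount of 0.5, no low filter or no rounding variance, 2 among the best 30868 summits, and 0 to 1 when a library was left out. Of the 32 sites, 10 were called by rank between the subsets, 3 among the best 30868 and 5 to 9 when a library was left out. In WT 4 were called: 2 among the best 30868, 2 with chaining at 100 bp, 9 with log10 of the rank and 0 to 4 when a library was left out. In KO 1 was called: 2 with chaining at 500 bp, 4 with log10 of the rank and 0 to 2 when a library was left out. The 3 cDC2-only sites became 0 among the best 30868 summits. The Ly75 difference of 0.01 turned to -0.083 with all deposited summits, -0.304 among the best 30868, -0.072 with 10 kb, -0.077 by nearest gene, and ran from -0.087 to 0.107 when a library was left out. Cd24a turned to 0.136 with 10 kb, Rab7b to 0.096 by nearest gene and Clec9a to -0.558 among the best 30868. There limma called Clec9a lower in cDC2 (adjusted p = 0.0275). The causes were not tested. Genotype calls of the members stayed at 0 in all alternatives run.

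With the replicate block, which pairs libraries by number, limma gave all 17728 genes 1 shared SE in the subset comparisons of windows, because 2 residual degrees of freedom and the added rounding variance led it to estimate no spread of variance between genes. Its counts of 3 genes called between the subsets, 2 in WT and 1 in KO are therefore no test of single genes. The block without the rounding variance, chosen after seeing the data, gave each gene its own SE and called 0 of the 6 genes in every comparison, and 0 of all 17728 (5240 at an unadjusted p under 0.05 between the subsets). There the adjusted p was 0.0864 for Plpp1 and 0.120 for Naaa, with the differences as reported. By rank the block called 10 sites between the subsets, 3 in WT (the Ly75 site was lost, adjusted p = 0.0745) and 0 in KO. The deviations of same-numbered libraries correlated at 0.0039 to 0.064, with no known pairs to compare them with. Pairing was therefore neither shown nor excluded.

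Depth is unknown, and with 2 libraries a group only large differences can pass. Log10 of the rank weights the top of a list most, and presence near the foot of a list follows its length. Windows include neighbouring genes.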
